A study of Mus musculus with 11 samples.

Results

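The eicosanoid genes described here encode the enzymes that release arachidonic acid from membranes and turn it into prostaglandins, thromboxane and leukotrienes. The list held 10 genes, namely *Ptgs1*, *Ptgs2*, *Alox5*, *Alox5ap*, *Lta4h*, *Ltc4s*, *Tbxas1*, *Pla2g2d*, *Pla2g4a* and *Pla2g7*, and values were analysed for 9 of them, out of 12932 genes with values in all. *Ptgs2* was not analysed here. The list was drawn up by gene function and in part chosen by measured values, those of *Pla2g2d* and *Ptgs1* in RXR-deficient mature alveolar macrophages, where both were higher than in controls. For that reason no p is given for any listed gene in that comparison, where counts only describe the choice, nor for *Pla2g2d* and *Ptgs1* in any other comparison, since the others share a group with it.

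Phospholipases A2 cut arachidonic acid out of phospholipids. The cyclooxygenases encoded by *Ptgs1* and *Ptgs2* convert it to prostaglandin H2, from which separate synthases make prostaglandin E2, prostaglandin D2, prostacyclin and thromboxane A2. In the other arm, 5-lipoxygenase, helped by its activating protein at the nuclear membrane, makes leukotriene A4, which *Lta4h* turns into leukotriene B4 and *Ltc4s* into the cysteinyl leukotrienes. Alveolar macrophages (AMs), the resident phagocytes of the airspace, are known as a source of leukotrienes and thromboxane in the lung.

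RNA was measured in AMs of C57BL/6J mice at 9 weeks of age, both males and females, in libraries that the labels describe as individual biological replicates. Controls were Rxrabfl/fl littermates without Cre (CD11cCre- Rxrabfl/fl), which carry the floxed *Rxra* and *Rxrb* genes intact. In the CD11cCre+ Rxrabfl/fl mice, Cre driven by the *Cd11c* promoter removes both genes, those of the retinoid X receptors alpha and beta, in CD11c+ cells, so other CD11c+ cells of these mice are hit too. The groups were mature AMs (mAMs, CD11b- SiglecF+) of controls (mAM_WT, 4 libraries), mAMs of CD11cCre+ Rxrabfl/fl mice (mAM_KO, 4 libraries) and immature AMs (CD11b+ SiglecF+) of CD11cCre+ Rxrabfl/fl mice (Imm_KO, replicates 2 to 4), at 40000 cells per library. All groups carry the floxed alleles. Immature AMs of controls are not among the samples, so in Imm_KO against mAM_WT the cell state and the genotype cannot be told apart. In bulk RNA, fewer cells of a type and less RNA per cell cannot be told apart either. The study's legends give 3 mAM_KO mice and its gene table shows replicates 1 to 3, so mAM_KO replicate 4 was kept out of the fit and its values are given apart.

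The libraries held 16659960 to 37873532 reads on the genes of the table, and levels are given as CPM, the reads of a gene scaled to the size of its library. Of the targeted genes, *Rxra* was at 310 to 380 CPM in mAM_WT, 334 to 351 CPM in the fitted mAM_KO libraries and 283 to 305 CPM in Imm_KO, and *Rxrb* was at 51.4 to 72.1, 39.3 to 52.8 and 31.9 to 35.2 CPM. Neither passed the test in mAM_KO against mAM_WT, and both were lower in Imm_KO than in mAM_WT (limma adjusted p = 0.0141 for *Rxra* and 1.26e-04 for *Rxrb*). Each value is a total over a whole gene, in which the exons that Cre leaves are still counted, so it does not check the deletion. The sorts were visible in their own markers. *Itgam*, which encodes CD11b, was at 3.52 to 3.85 CPM in mAM_WT, 3.93 to 9.95 CPM in the fitted mAM_KO libraries and 168 to 174 CPM in Imm_KO. *Siglecf* was at 244 to 264, 198 to 241 and 19.3 to 19.7 CPM, so the Imm_KO libraries, although sorted as SiglecF+, were the lowest for its transcript.

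To show what lies at the starts of genes that went opposite ways, sequence was read from RefSeq promoters on GRCm38.p6, from 100 bases before to 10 bases after the start, on the strand of the gene. Promoters were matched for 8 of the 9 genes with values, all but *Alox5ap*. The first 3 shown belong to genes that were higher in Imm_KO than in mAM_WT and were picked for a match near the start. The last 2 belong to the genes that were lower by the largest factors. Capitals mark GAGGAAG on either strand, the core of the element bound by PU.1, and TATAAA on either strand, a core promoter element. That only the first 3 hold capitals follows from this choice and from the window, which ends before a GAGGAAG match in *Ltc4s*. In *Tbxas1* the GAGGAAG match is read on the opposite strand and lies next to 2 overlapping TATAAA matches. In order, the windows are chr2:36230326-36230435 (plus strand), chr4:138775635-138775744 (plus strand), chr6:38918886-38918995 (plus strand), chr6:116461169-116461278 (minus strand) and chr11:50238523-50238632 (minus strand).
Ptgs1: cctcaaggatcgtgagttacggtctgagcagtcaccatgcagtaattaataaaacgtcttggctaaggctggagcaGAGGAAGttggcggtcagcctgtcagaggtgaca
Pla2g2d: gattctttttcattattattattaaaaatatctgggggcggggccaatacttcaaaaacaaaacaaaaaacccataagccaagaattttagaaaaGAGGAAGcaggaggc
Tbxas1: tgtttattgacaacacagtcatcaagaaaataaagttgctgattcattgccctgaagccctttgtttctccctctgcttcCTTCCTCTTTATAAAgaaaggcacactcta
Alox5: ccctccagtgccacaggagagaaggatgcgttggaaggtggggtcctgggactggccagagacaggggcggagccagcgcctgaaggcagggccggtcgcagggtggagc
Ltc4s: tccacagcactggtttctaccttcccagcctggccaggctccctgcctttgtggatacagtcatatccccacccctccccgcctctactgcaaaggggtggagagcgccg

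GAGGAAG lay 24 to 18 bases before the start of *Ptgs1*, 20 to 14 bases before that of *Tbxas1*, and across the start of *Pla2g2d*, from base -5 to base 2, counted without a base 0. In the full windows of 300 bases, 250 before and 50 after the start, 4 of the 10 promoters of listed genes held it (*Pla2g4a* has 2 promoters), the other gene being *Ltc4s* at bases 16 to 22 after the start, against 13.6% of 32851 RefSeq promoters. The half-site of retinoid X receptors and their partners, AGGTCA, was in 1 of the 10, a *Pla2g4a* promoter, against 16.3% of all. *Pla2g7*, which was also higher in Imm_KO, *Lta4h* and *Alox5* held no match to any motif searched. The direct repeat of the half-site, AGGTCANAGGTCA, was in none of the 10 and in 0.0396% of all, and GGGTCA was in none and in 13.7%. TTGCGCAA, the palindrome of C/EBP factors, was in the *Ptgs2* promoter and in 0.183% of all. TATAAA was in 2 of the 10, that of *Tbxas1* and a *Pla2g4a* promoter, against 13.6% of all. All motifs were searched on both strands. AGGTCANAGGTCA contains AGGTCA, and a match is a run of letters, not a site shown to be bound.

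Of the phospholipases, *Pla2g2d*, which encodes a secreted enzyme of group IID (ENSMUSG00000041202; chr4:138775735-138782046 on GRCm38), showed the widest span. In mAM_WT its 4 libraries held 7, 2, 4 and 1 reads, or 0.198, 0.101, 0.169 and 0.0737 CPM. In mAM_KO replicates 1 to 3 it was at 8.29, 4.01 and 10.5 CPM, and in Imm_KO at 19.5, 17.3 and 16.1 CPM. No group overlapped another, so the gene was near the limit of detection in control mAMs, present in every RXR-deficient mAM library, and higher again in immature AMs. The means were 0.135 ± 0.0580, 7.60 ± 3.30 and 17.6 ± 1.74 CPM (± SD over 4, 3 and 3 libraries, as for all means below). On the log2 scale mAM_KO was 5.81 (SE 0.418) above mAM_WT and Imm_KO 1.32 above mAM_KO. With 14 reads in all in mAM_WT, the size of this difference depends on the offset: with 1 CPM added to each value, mAM_KO was 2.84 above mAM_WT on the log2 scale.

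*Pla2g7*, which encodes the secreted hydrolase of platelet-activating factor (chr17:43568098-43612201), was set apart in immature AMs. It was at 9.15, 7.02, 7.53 and 7.83 CPM in mAM_WT, at 8.15, 10.56 and 10.998 CPM in mAM_KO, and at 35.6, 34.4 and 36.9 CPM in Imm_KO. The mAM groups overlapped and every Imm_KO library lay above both. Tests are given as the difference of mean log2 CPM, its SE and the p adjusted over all genes. Imm_KO was 4.52-fold the mean of mAM_WT (log2 difference 2.18 ± 0.137, limma adjusted p = 4.17e-08) and 3.60-fold that of mAM_KO (log2 difference 1.86 ± 0.146, limma adjusted p = 6.24e-07).

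*Pla2g4a*, which encodes the cytosolic phospholipase A2 that supplies arachidonate on calcium signals (chr1:149829618-149961290), moved little. It was at 68.8, 60.7, 65.8 and 49.7 CPM in mAM_WT, 65.2, 61.5 and 75.5 CPM in mAM_KO and 45.1, 47.7 and 53.8 CPM in Imm_KO. Imm_KO lay below every mAM_KO library and overlapped mAM_WT through mAM_WT replicate 4. Limma called it lower in Imm_KO than in mAM_WT (log2 fold change -0.32, limma adjusted p = 0.0368) and than in mAM_KO (log2 difference -0.46 ± 0.124, limma adjusted p = 0.00985). The call against mAM_WT was lost without mAM_WT replicate 1, 2 or 3 or Imm_KO replicate 2 or 3, at limma p-adj of 0.0678 to 0.140.

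**Figure D1:**
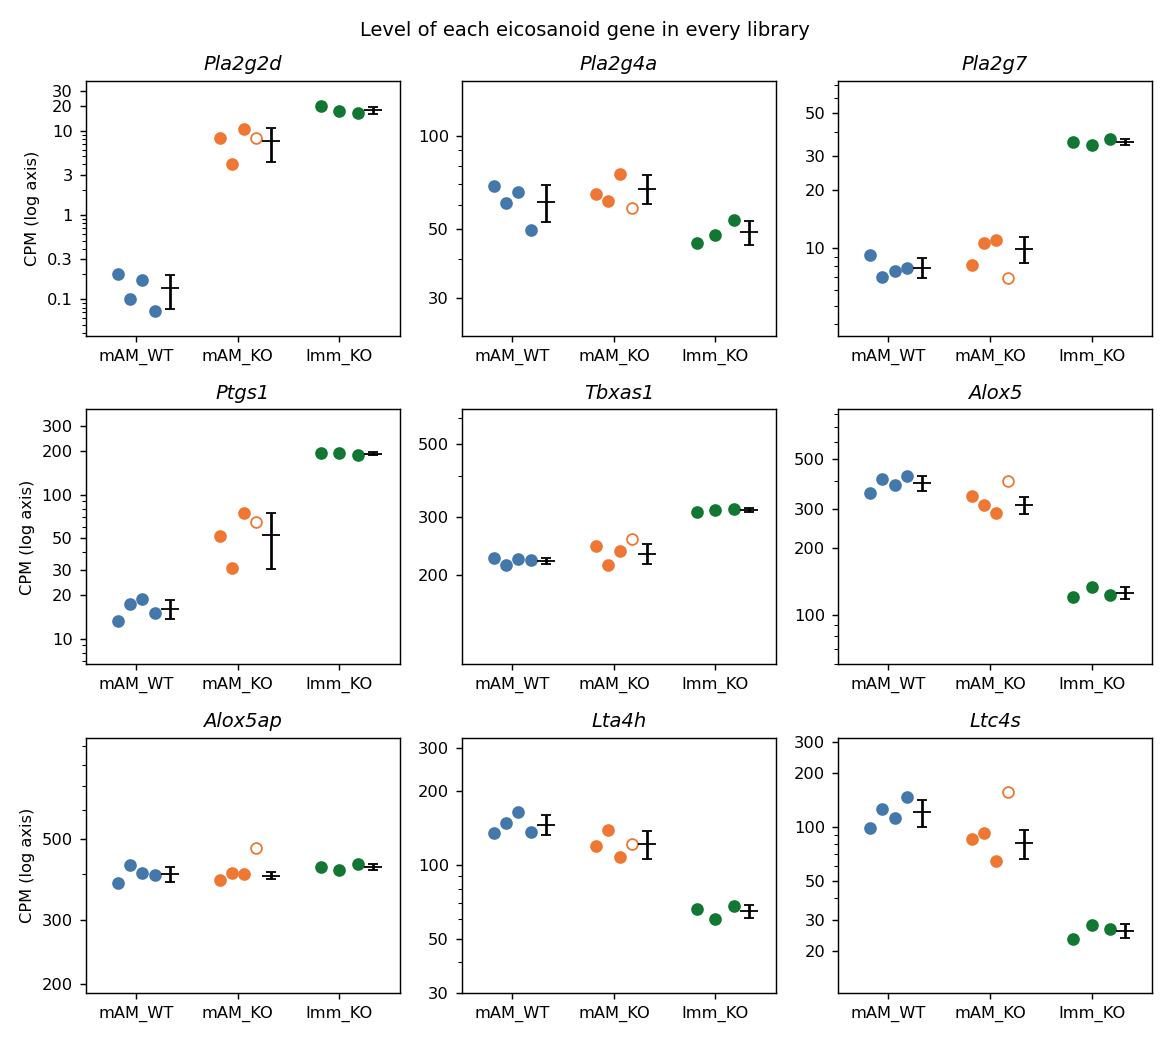
CPM on log axes for the 9 eicosanoid genes in every library of mAM_WT, mAM_KO and Imm_KO. Open circles are mAM_KO replicate 4, which was outside the fit, and black bars give the mean ± SD of the fitted libraries. *Pla2g2d* is between 0.0737 and 0.198 CPM in mAM_WT and between 4.01 and 19.5 CPM elsewhere, *Alox5ap* stays between 378 and 474 CPM throughout, and *Alox5*, *Lta4h* and *Ltc4s* are lowest in Imm_KO.

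In the cyclooxygenase arm, *Ptgs1* (ENSMUSG00000047250; chr2:36230426-36252272), the constitutive cyclooxygenase, was ordered like *Pla2g2d* but from a higher base. The mAM_WT libraries were at 13.2, 17.3, 18.9 and 15.1 CPM. The fitted mAM_KO libraries were at 51.7, 30.7 and 74.6 CPM, and the Imm_KO libraries at 195, 195 and 188 CPM. Each group lay wholly above the one before. The means were 16.1 ± 2.49, 52.3 ± 21.9 and 192.5 ± 4.27 CPM, or 3.24-fold the control mean in mAM_KO and 11.9-fold in Imm_KO. The spread among mAM_KO libraries was by far the widest of the 3 groups. An antisense gene, *Gm43621*, shares 148 exon bases with *Ptgs1*. Its reads came to 0.517% to 1.04% of those of *Ptgs1* in the 3 groups, and how strand was treated in counting is not given in the sources used here.

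*Tbxas1*, which encodes thromboxane A synthase (chr6:38875404-39084585), rose in immature AMs by a smaller factor. It was at 225, 214, 223 and 221 CPM in mAM_WT, 245, 215 and 236 CPM in mAM_KO, and 311, 316 and 317 CPM in Imm_KO. Only Imm_KO stood apart. It was 1.42-fold the mean of mAM_WT (log2 difference 0.51 ± 0.0598, limma adjusted p = 1.39e-05) and 1.36-fold that of mAM_KO (log2 difference 0.44 ± 0.0639, limma adjusted p = 1.29e-04). Platelets are rich in transcripts of *Ptgs1* and *Tbxas1*. Of 8 platelet markers 2 had values, *Pf4* and *Treml1*, and their sum was 0.413 to 0.884 CPM in mAM_WT, 0.255 to 1.11 CPM in the fitted mAM_KO libraries and 3.64 to 4.41 CPM in Imm_KO. *Pf4* is also in the list of interstitial macrophage markers. Of 11 markers of mast cells and basophils, mast cells being another source of *Ptgs1* and *Ltc4s*, and of 5 of eosinophils, 0 had values that were analysed here. The part of these cells in the results was not tested.

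The leukotriene arm went the other way, except for its activating protein. *Alox5*, which encodes 5-lipoxygenase (ENSMUSG00000025701; chr6:116410077-116461178), was at 353, 407, 382 and 418 CPM in mAM_WT. It was at 341, 310 and 285 CPM in mAM_KO and at 120, 134 and 123 CPM in Imm_KO. Every mAM_KO library fitted was below every control, and every Imm_KO library was below those. Imm_KO had 0.321 of the mean of mAM_WT (log2 difference -1.64 ± 0.0795, limma adjusted p = 4.21e-09) and 0.402 of that of mAM_KO (log2 difference -1.31 ± 0.0850, limma adjusted p = 1.12e-07). In mAM_KO against mAM_WT the log2 fold change was -0.32 (SE 0.0795), and mAM_KO replicate 4, at 401 CPM, lay among the controls.

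*Alox5ap*, which encodes the 5-lipoxygenase-activating protein (chr5:149264767-149288153), was at 378, 424, 404 and 400 CPM in mAM_WT, 387, 404 and 401 CPM in mAM_KO, and 419, 412 and 426 CPM in Imm_KO. It did not pass the test in either comparison of Imm_KO. The log2 fold changes were 0.06 (SE 0.0575, limma adjusted p = 0.395) against mAM_WT and 0.08 (SE 0.0615, limma adjusted p = 0.357) against mAM_KO. Quantile normalization, which forces all libraries to a common distribution, put it past the threshold, at log2 fold changes of 0.20 and 0.17. The antisense gene *Gm19719*, which shares 189 exon bases with *Alox5ap*, had 0.633% to 0.975% as many reads.

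The enzymes that divide leukotriene A4 both fell in Imm_KO. *Lta4h*, for leukotriene B4 (chr10:93453411-93484875), was at 135, 148, 165 and 136 CPM in mAM_WT, 119, 139 and 107 CPM in mAM_KO, and 66.2, 59.95 and 67.8 CPM in Imm_KO. The mAM groups overlapped through mAM_KO replicate 2, and Imm_KO lay below both. Imm_KO had 0.443 of the mean of mAM_WT (log2 difference -1.17 ± 0.0975, limma adjusted p = 5.80e-07) and 0.531 of that of mAM_KO (log2 difference -0.91 ± 0.104, limma adjusted p = 1.79e-05).

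*Ltc4s*, for leukotriene C4 (chr11:50236461-50238616), was at 98.1, 127, 112 and 147 CPM in mAM_WT. It was at 85.7, 92.6 and 64.0 CPM in mAM_KO replicates 1 to 3 and at 23.4, 28.2 and 26.8 CPM in Imm_KO. The fitted groups did not overlap, but mAM_KO replicate 4 was at 158 CPM, above every control, so the order of the mAM groups depends on whether it is counted. In mAM_KO against mAM_WT the log2 fold change was -0.58 (SE 0.145) and, with all 11 libraries, -0.34. Imm_KO had 0.216 of the mean of mAM_WT (log2 difference -2.20 ± 0.145, limma adjusted p = 6.75e-08) and 0.324 of that of mAM_KO (log2 difference -1.61 ± 0.155, limma adjusted p = 3.82e-06). The antisense gene *Gm26542* shares 268 exon bases with *Ltc4s*, had 7.05% to 9.48% as many reads, and fell in Imm_KO against mAM_WT as well (log2 fold change -1.80, limma adjusted p = 1.56e-06).

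Over the 7 genes tested, 2 rose (*Pla2g7* and *Tbxas1*), 4 fell (*Pla2g4a*, *Alox5*, *Lta4h* and *Ltc4s*) and *Alox5ap* did not pass the test in Imm_KO against mAM_WT, where 48.1% of all genes tested were called, 22.8% higher and 25.3% lower. The same calls were made against mAM_KO, with 37.9% of all genes called, 17.7% higher and 20.2% lower. Of the same 7 genes, 5 had no overlap between Imm_KO and mAM_WT and all 7 had none between Imm_KO and mAM_KO, beside 51.3% and 51.2% of all genes. In mAM_KO against mAM_WT, which took part in choosing the list, the fitted libraries of 4 of the 9 genes did not overlap, *Pla2g2d* and *Ptgs1* being higher and *Alox5* and *Ltc4s* lower, beside 20.1% of all genes. The limma threshold marked the same 4, beside 4.84% of all genes (2.25% higher, 2.59% lower). These counts describe the comparison that chose the list, and nothing is read from them. The median log2 fold change over all genes was within 0.01 of 0 in each comparison. The comparisons share groups and so are not independent of each other.

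**Figure D2:**
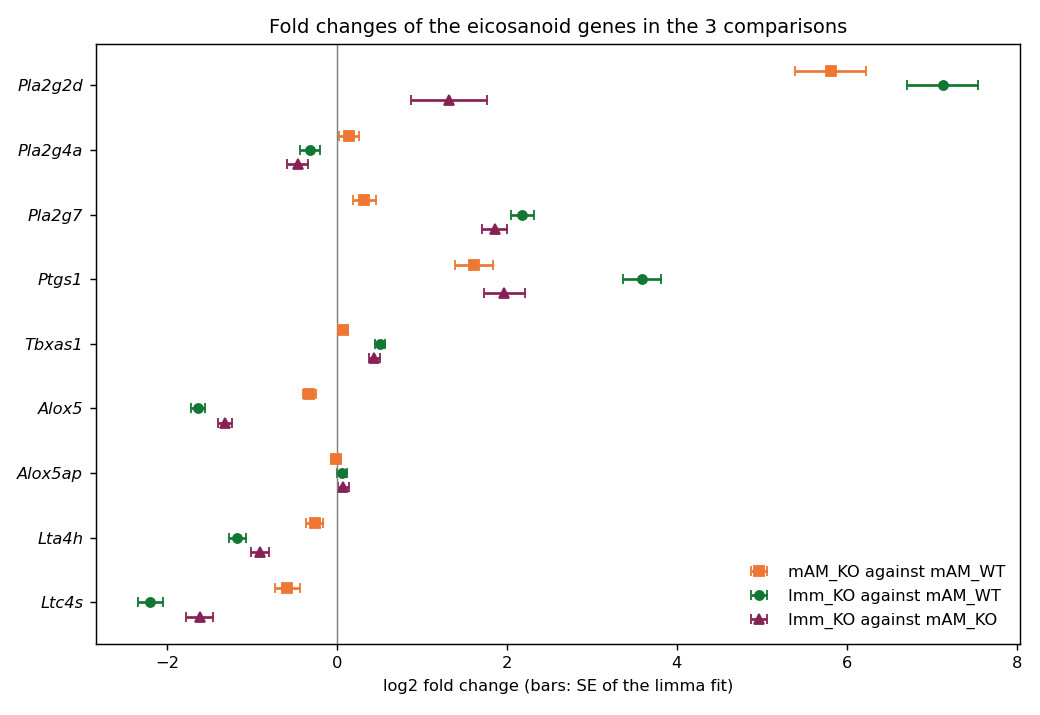
Log2 fold changes of the 9 genes with the SE of the limma fit, for mAM_KO against mAM_WT, Imm_KO against mAM_WT and Imm_KO against mAM_KO. *Pla2g2d*, *Pla2g7*, *Ptgs1* and *Tbxas1* lie to the right of 0 in both comparisons of Imm_KO, *Alox5*, *Lta4h* and *Ltc4s* lie to the left, and *Alox5ap* lies within 0.08 of 0.

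Because CPM do not correct for transcript length, levels were compared between genes per kilobase of merged annotated exons. In mAM_WT the order of the mean levels was *Alox5ap* (283 CPM per kb), *Ltc4s* (119), *Alox5* (95.0), *Tbxas1* (24.3), *Lta4h* (23.9), *Pla2g4a* (9.58), *Ptgs1* (4.16), *Pla2g7* (2.71) and *Pla2g2d* (0.0603). Libraries of *Ltc4s* and *Alox5* overlapped, as did those of *Tbxas1* and *Lta4h*. In mAM_KO the order was the same down to *Lta4h* (19.97 CPM per kb). *Ptgs1* (13.5) then stood before *Pla2g4a* (10.6), with overlapping libraries, and *Pla2g2d* (3.39) overlapped *Pla2g7* (3.41). In Imm_KO, *Ptgs1* was next to *Alox5ap*, at 49.6 against 295 CPM per kb, followed by *Tbxas1* (34.6), *Alox5* (30.5), *Ltc4s* (25.8), *Pla2g7* (12.3), *Lta4h* (10.6), *Pla2g2d* (7.86) and *Pla2g4a* (7.64), and the libraries of only the last pair overlapped. These places depend on the length used, most for *Tbxas1*, *Lta4h* and *Pla2g4a*. Per kilobase of the longest coding transcript the order in mAM_WT was the same, with *Tbxas1* at 111, *Lta4h* at 71.9 and *Pla2g4a* at 21.4 CPM per kb. In mAM_KO, *Tbxas1* (117) then stood before *Ltc4s* (113) and *Alox5* (111), and *Pla2g4a* (23.6) before *Ptgs1* (18.2). In Imm_KO, *Alox5ap* was followed by *Tbxas1* (158), *Ptgs1* (67.2), *Alox5* (44.4), *Ltc4s* (36.5), *Lta4h* (31.9), *Pla2g4a* (17.1), *Pla2g7* (16.98) and *Pla2g2d* (8.14).

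The balance between the arms was read as the per-kilobase level of *Ptgs1* over that of *Alox5* in each library. It was 0.0395, 0.0449, 0.0524 and 0.0383 in mAM_WT, 0.160, 0.105 and 0.276 in mAM_KO, and 1.73, 1.54 and 1.62 in Imm_KO. The 3 groups did not overlap, and only in Imm_KO was *Ptgs1* above *Alox5*. In mAM_KO replicate 4 the ratio was 0.170, within the range of the other mAM_KO libraries. Within the leukotriene arm, *Lta4h* over *Ltc4s* was 0.154 to 0.245 in mAM_WT, 0.231 to 0.278 in the fitted mAM_KO libraries and 0.353 to 0.470 in Imm_KO, with *Ltc4s* the higher in each. Per kilobase of the longest coding transcript this ratio was 0.326 to 0.521, 0.491 to 0.591 and 0.7496 to 0.998, so in Imm_KO it came close to equal levels, while *Ptgs1* over *Alox5* was still above 1 only in Imm_KO, at 1.43 to 1.61. *Alox5* over *Alox5ap* was 0.323 to 0.362, 0.246 to 0.305 and 0.0988 to 0.112. These ratios describe levels of transcripts and rest partly on the values that chose the list.

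**Figure D3:**
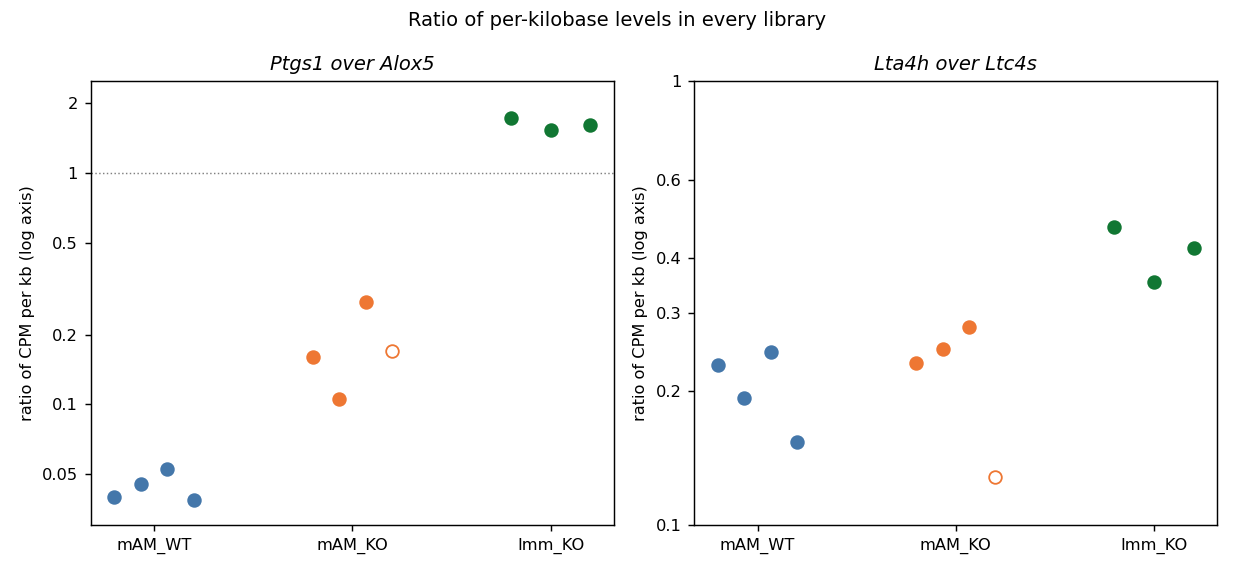
Ratio of CPM per kilobase of merged exons in every library, on log axes, for *Ptgs1* over *Alox5* (left) and *Lta4h* over *Ltc4s* (right). The dotted line marks equal levels, and open circles are mAM_KO replicate 4. *Ptgs1* over *Alox5* runs from 0.0383 in mAM_WT to 1.73 in Imm_KO without overlap between groups.

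The mAM_KO libraries differed among themselves, and this was described as the position of each library in percent of the distance in CPM from the mAM_WT mean to the Imm_KO mean. For *Ptgs1*, replicates 1 to 3 lay at 20.1%, 8.25% and 33.1%, and replicate 4 at 27.5%. For *Pla2g2d* they lay at 46.6%, 22.2% and 59.2%, and replicate 4 at 46.5%. Both genes were thus lowest in replicate 2 and highest in replicate 3. Of the genes that fell in Imm_KO, *Lta4h* kept that order among the fitted libraries, at 32.7%, 8.48% and 47.5%, and *Ltc4s* was at 37.0%, 29.8% and 59.95%, while *Alox5* was at 18.7%, 30.3% and 39.6%. *Pla2g7* stayed at 0.956% to 11.2%. *Pla2g4a*, which also fell in Imm_KO, was at -32.4%, -2.45% and -115%, on the other side of the mAM_WT mean from Imm_KO. *Tbxas1* was at 25.6%, -6.55% and 16.4%.

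Markers of the immature sort gate and of interstitial macrophages kept the order of *Ptgs1* and *Pla2g2d* among replicates 1 to 3. *Itgam* lay at 2.55%, 0.183% and 3.79% in replicates 1 to 3 and at 2.51% in replicate 4. The summed level of the 7 interstitial macrophage markers with values, of 10 listed (*Pf4* is also in the platelet list), was 1.92 to 2.92 CPM in mAM_WT, 3.67 to 12.8 CPM in the fitted mAM_KO libraries and 293 to 317 CPM in Imm_KO, and its positions were 1.27%, 0.432% and 3.44%. Of these, *C1qa*, which encodes a chain of complement component C1q, was at 0.013 to 0.074 CPM in mAM_WT, 0.069 to 0.305 CPM in the fitted mAM_KO libraries and 24.5 to 29.8 CPM in Imm_KO, which is 0 or 1 read per library in mAM_WT. These markers were therefore also lowest in replicate 2 and highest in replicate 3, at positions closer to mAM_WT than those of *Ptgs1* and *Pla2g2d*. Of the 14 markers of mature AMs, some kept the order too, among them *Siglecf* and *Krt79*, and others did not. *Itgax* was at 1520 to 1687 CPM in mAM_WT, 1903, 1639 and 1837 CPM in mAM_KO replicates 1 to 3, and 1401 to 1453 CPM in Imm_KO. The sum of the list was 23473 to 29797 CPM in mAM_WT, which overlapped both other groups. It was 27847 to 33596 CPM in the fitted mAM_KO libraries and 25269 to 27046 CPM in Imm_KO. Most of that sum was *Chil3*, at 13182 to 18297, 17691 to 23887 and 20272 to 21939 CPM. Every Imm_KO library lay below all of mAM_WT for *Siglecf*, *Itgax*, *Marco*, *Fabp4*, *Car4*, *Ear1*, *Ear2*, *Krt79*, *Krt19* and *Mrc1*. For *Chil3* and *Fabp5* every Imm_KO library lay above, and *Pparg* and *Plet1* overlapped. *Siglecf* lay at 14.2%, 6.53% and 24.8%, and *Krt79*, at 594 to 759 CPM in mAM_WT and 5.96 to 7.01 CPM in Imm_KO, lay at 73.8%, 40.6% and 83.5%, further from mAM_WT than *Ptgs1* or *Pla2g2d*. The neutrophil list, 7 of 10 markers with values, summed to 55.8 to 63.5 CPM in mAM_WT, 113 to 341 CPM in the fitted mAM_KO libraries and 904 to 977 CPM in Imm_KO. Most of that difference was *Mmp8*, which the study also counts among the genes of AMs and which lay at 15.5%, 5.43% and 32.3%. Without it the other 6 summed to 31.5 to 39.8, 31.9 to 41.2 and 53.1 to 63.0 CPM. The monocyte list, 5 of 7 and led by *Fn1*, overlapped between the mAM groups, at 1485 to 2159 CPM in mAM_WT and 1404 to 1706 CPM in the fitted mAM_KO libraries, and was at 6606 to 7253 CPM in Imm_KO. *Clec9a* and *Zbtb46*, the 2 dendritic cell markers with values of 8, summed to 5.40 to 7.24, 6.16 to 8.12 and 20.7 to 24.1 CPM. *Vwf*, the 1 of 9 markers of endothelium and fibroblasts with values, was at 118 to 145, 131 to 154 and 299.7 to 332 CPM, and *Epcam*, the 1 of 6 for alveolar type 2 cells, at 7.34 to 13.5, 6.12 to 12.6 and 0.765 to 1.04 CPM. The part of such cells in the mAM_KO and Imm_KO values was not tested.

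**Figure D4:**
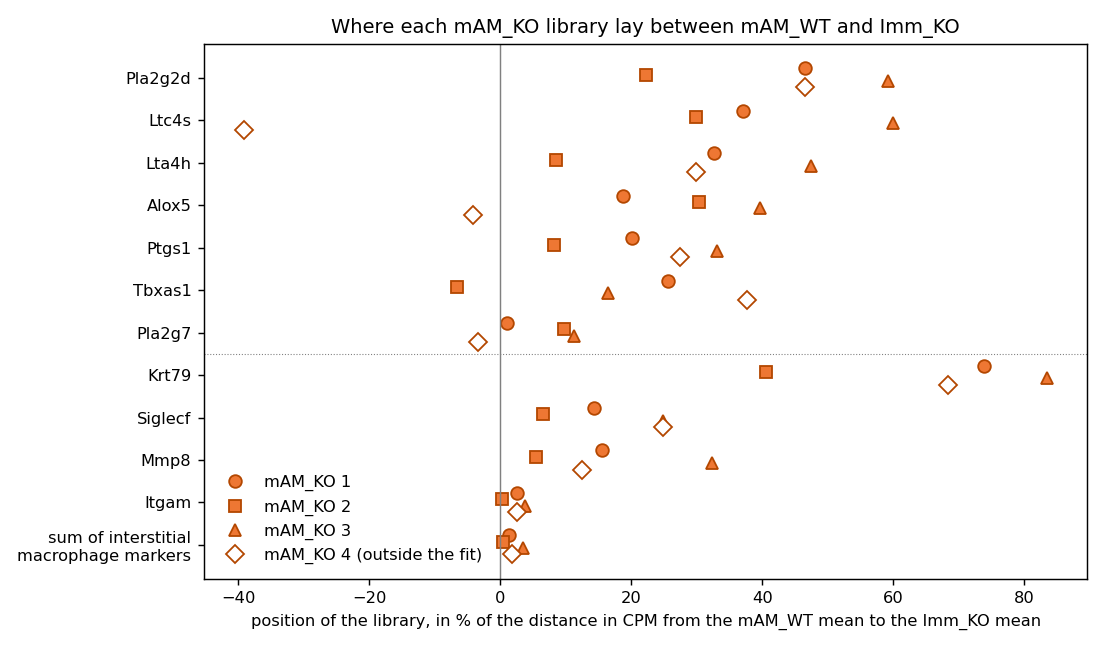
Position of each mAM_KO library in percent of the distance in CPM from the mAM_WT mean (0) to the Imm_KO mean (100), for 7 eicosanoid genes above the dotted line and for markers below it. Open diamonds are mAM_KO replicate 4. *Itgam* and the interstitial macrophage markers lie within 3.79% of the mAM_WT mean, while *Ptgs1* reaches 33.1%, *Pla2g2d* 59.2% and *Krt79* 83.5%.

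Of the other genes of the pathway, 49 had values, in 7 lists by function. Limma called 14 of them higher and 15 lower in Imm_KO against mAM_WT and 13 higher and 14 lower against mAM_KO. In mAM_KO against mAM_WT it called 4 higher and 1 lower. As shares these were 59.2%, 55.1% and 10.2% of the 49, beside 48.1%, 37.9% and 4.84% of all genes tested, and the median log2 fold change over the 49 was within 0.04 of 0 each time.

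In the synthesis and breakdown of prostaglandins, 3 of 11 genes rose and 2 fell in Imm_KO against mAM_WT. That is 45.5% called, beside 48.1% of all genes tested. *Hpgd*, which encodes the dehydrogenase that inactivates prostaglandins, was at 2.39 ± 0.617 in mAM_WT, 9.32 ± 4.48 in mAM_KO and 122.9 ± 11.6 CPM in Imm_KO. It rose in mAM_KO against mAM_WT (log2 difference 1.90 ± 0.280, limma adjusted p = 0.00411) and further in Imm_KO (log2 fold change 5.72 against mAM_WT, limma adjusted p = 4.55e-09). *Ptges*, an inducible prostaglandin E synthase, fell in mAM_KO, from 13.8 ± 2.54 to 8.14 ± 0.347 CPM (log2 difference -0.75 ± 0.147, limma adjusted p = 0.0167), and was at 10.98 ± 0.174 CPM in Imm_KO. That call did not pass without mAM_KO replicate 1 or 3, or with the replicate block (limma p-adj 0.0744). *Prxl2b*, a prostamide and prostaglandin F synthase, rose from 1.11 ± 0.394 CPM in mAM_WT to 6.10 ± 0.121 CPM in Imm_KO (log2 difference 2.52 ± 0.514, limma adjusted p = 0.00133).

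Among the prostanoid receptors, 4 had values and only *Ptgir*, the prostacyclin receptor, passed the test in Imm_KO against mAM_WT, beside 48.1% of all genes. It was at 13.4 ± 2.64 in mAM_WT, 43.5 ± 12.9 in mAM_KO and 112 ± 5.76 CPM in Imm_KO. It rose in mAM_KO (log2 difference 1.67 ± 0.185, limma adjusted p = 7.73e-04) and in Imm_KO (log2 fold change 3.08, limma adjusted p = 2.77e-08), both against mAM_WT. The prostaglandin E2 receptors *Ptger1*, *Ptger2* and *Ptger4* were not called in that comparison, at log2 fold changes of -0.35, -0.23 and 0.06. Against mAM_KO, *Ptger1* was lower in Imm_KO, at 8.32 ± 1.78 against 15.2 ± 2.56 CPM (log2 difference -0.88 ± 0.276, limma adjusted p = 0.0234).

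Of the 7 genes for leukotriene metabolism and export, 4 fell in Imm_KO against mAM_WT and 0 rose, beside 25.3% of all genes lower and 22.8% higher. Against mAM_KO, 2 of the 7 fell in Imm_KO and 0 rose, beside 20.2% of all genes lower and 17.7% higher. In mAM_KO against mAM_WT, 0 of the 7 were called, beside 4.84% of all genes. Of the leukotriene and related receptors with values, *Cysltr1*, the receptor of cysteinyl leukotrienes, rose from 2.46 ± 0.9998 CPM in mAM_KO to 12.1 ± 2.33 CPM in Imm_KO (log2 difference 2.35 ± 0.279, limma adjusted p = 2.35e-05). The formyl peptide receptors *Fpr1* and *Fpr2*, of which *Fpr2* also binds lipoxin A4, fell. *Fpr1* went from 349 ± 14.8 CPM in mAM_WT to 57.6 ± 1.14 CPM in Imm_KO (log2 difference -2.60 ± 0.107, limma adjusted p = 1.05e-09). *Fpr2* went from 209 ± 20.5 to 38.2 ± 5.24 CPM (log2 difference -2.46 ± 0.157, limma adjusted p = 4.83e-08).

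Of the genes that return arachidonate to membranes and of platelet-activating factor (PAF), 4 of 7 rose and 2 fell in Imm_KO against mAM_WT. As a share this was 85.7% called, beside 48.1% of all genes tested. *Ptafr*, the PAF receptor, was at 16.5 ± 1.47 in mAM_WT, 31.1 ± 9.91 in mAM_KO and 164 ± 6.04 CPM in Imm_KO. *Lpcat2*, which makes PAF, was at 12.8 ± 1.59, 29.8 ± 11.8 and 33.6 ± 2.54 CPM. Both rose in mAM_KO against mAM_WT, with limma p-adj of 0.0189 for *Ptafr* and 0.0172 for *Lpcat2*. These calls were lost without mAM_KO replicate 1 or 3, with only the 2 groups compared, and without a variance trend. The *Ptafr* call was also lost with the replicate block (limma p-adj 0.0532). *Lpcat1*, known for the remodelling of surfactant lipids, rose from 14.3 ± 1.51 CPM in mAM_WT to 59.3 ± 1.95 CPM in Imm_KO (log2 difference 2.05 ± 0.153, limma adjusted p = 2.05e-07).

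Of 13 other phospholipases A2 and PAF hydrolases, 3 rose and 4 fell in Imm_KO against mAM_WT, or 53.8%, beside 48.1% of all genes. None was called in mAM_KO against mAM_WT, beside 4.84% of all genes. *Pnpla8*, a calcium-independent phospholipase, was at 331 ± 58.1 in mAM_KO and 89.6 ± 7.02 CPM in Imm_KO (log2 difference -1.88 ± 0.134, limma adjusted p = 2.89e-07). *Ephx1*, the microsomal epoxide hydrolase, rose from 12.0 ± 2.62 CPM in mAM_WT and 14.9 ± 2.0045 CPM in mAM_KO to 100.5 ± 1.57 CPM in Imm_KO (log2 fold change 3.09 against mAM_WT, limma adjusted p = 7.50e-09).

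**Figure D5:**
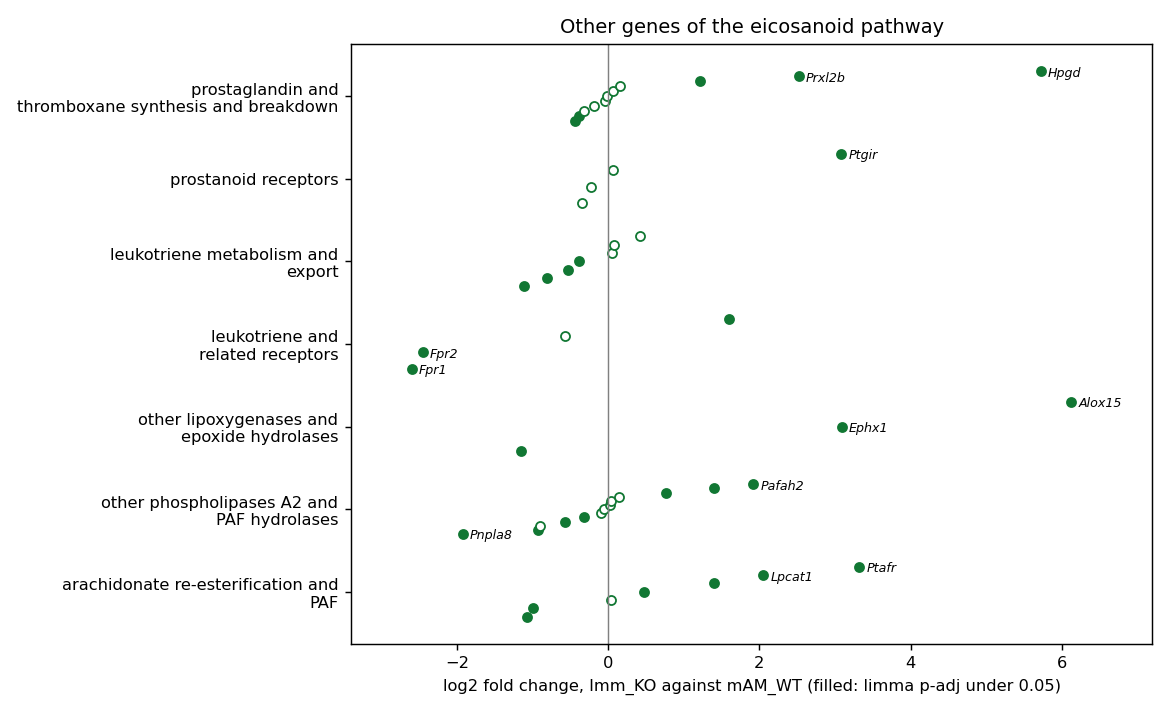
Log2 fold changes in Imm_KO against mAM_WT for the 49 other pathway genes, 1 circle per gene and 1 band per list, filled where the limma p-adj was under 0.05. Genes beyond 1.8 on either side are named, with *Hpgd*, *Ptgir*, *Ptafr* and *Ephx1* to the right and *Fpr1*, *Fpr2* and *Pnpla8* to the left.

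By Pearson correlation of log2 CPM over the 10 fitted libraries, among 10424 genes that averaged 5 CPM or more in a group, the genes most like *Ptgs1* were *Ecm1* (0.996), *Cd93* (0.995) and *Ceacam1* (0.994). For *Pla2g2d* they were *F11r* (0.979), *Tlr3* (0.979) and *Pgm2l1* (0.973). Such values follow the 3 group means that the libraries share, and between *Ptgs1* and *Pla2g2d* themselves the correlation was 0.916. Of the genes under study, *Alox5* and *Ltc4s* were correlated at 0.990 and *Alox5* and *Pla2g7* at -0.995 over the same libraries.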

How the data were processed

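RNA-seq values came from a single table of 11 libraries in 3 groups, which were taken from the sample labels. The labels give polyA RNA. According to the study's methods, total RNA was extracted and made into directional libraries, and 60 bases of each fragment were sequenced from a single end on a NextSeq2000 (the labels also name a HiSeq-2500, and give lung digestion where the methods give lavage). The authors trimmed the reads with Cutadapt, discarded those under 30 bases, estimated counts with RSEM (version 1.3.1 in the submitters' notes) on GRCm38 transcripts of Ensembl release 99, and normalized by TMM in limma, keeping genes that reached 1 CPM in 3 or more samples. The deposited values are CPM per library on TMM-scaled library sizes. Each equals the read count with 0.5 added, multiplied by a factor that is constant within the library, and whole reads within 0.01 were recovered for 100% of the values. Of the 12932 rows, 15 have no gene name. Every value column was mapped to a sample.

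Log2 of the deposited CPM was fitted in limma 3.58.1 (R 4.3.3; 3 group means, variance trend) over 10 libraries and the 12889 genes that reached 1 CPM in 3 or more of them, with two-sided moderated tests and Benjamini-Hochberg adjustment over all genes. A gene is called at p-adj under 0.05. The adjusted p-values in the text are from this fit. The 9 genes and the *Rxra* and *Rxrb* rows all passed the filter. edgeR 4.0.16 (quasi-likelihood), DESeq2 1.42.0 and limma-voom on the recovered reads, other scalings, filters and pseudocounts, the replicate block, and each library left out in turn were alternatives. The fit was tested on simulated data. The genes, the pathway and marker lists and the rules were chosen with earlier results of these data known. Pathway genes are named where they were called, averaged 5 CPM or more in the group with the higher level and did not overlap between libraries, up to 8 per comparison by log2 fold change, and *Lpcat2*, *Ptges*, *Cysltr1* and *Pnpla8* are named under this rule in at least 1 comparison. *Ptger1*, *Ptger2* and *Ptger4*, the other prostanoid receptors with values, were named after their values were seen.

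Gene positions and exon lengths are from GENCODE vM21 on GRCm38. Of the 60-base windows of the transcripts of *Pla2g2d*, 0.778% occur in other genes, of *Tbxas1* 0.306%, and of the other 7 genes none. The length of the longest coding transcript was added as an alternative after seeing the data. Means are given ± SD over libraries. CPM rest on 16659960 to 37873532 reads per library, so 3 reads, the limit used for a count of 0, are 0.0793 CPM in the deepest library.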

Additional observations from a re-analysis of the deposited data

Results flagged for a closer look

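A library that stood far from the others of its group was looked for in 42 groups, over 21 genes, of which chance alone would mark about 1 in 20. It was found once: *Ptgir* in mAM_WT replicate 3 was at 17.4 CPM, against 11.8 to 12.5 CPM in the other mAM_WT libraries, a gap of 0.871 of the range of the group.

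mAM_KO replicate 4, which is outside every comparison, was above all 4 mAM_WT libraries in 5 of the genes. *Pla2g2d* was at 8.27 CPM in it and at most at 0.198 CPM in mAM_WT. *Ptgs1* was at 64.6 CPM against at most 18.9 CPM. *Tbxas1* was at 256 CPM against at most 225 CPM, *Alox5ap* at 474 CPM against at most 424 CPM, and *Ltc4s* at 158 CPM against at most 147 CPM. For *Pla2g2d* and *Ptgs1* it lay within the range of the other mAM_KO libraries. For *Ltc4s* it lay on the other side of mAM_WT from them.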

How the results depend on the processing

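In both comparisons of Imm_KO, the counts of listed genes (over the 7 tested) and of other pathway genes called stayed within 1.5 times the reported count under every alternative run, and the directions of the tested listed genes were kept. A fold of at least 1.5 lowered the count over all genes to 3438 in Imm_KO against mAM_WT and to 2800 against mAM_KO. With each library left out in turn these counts were 5027 to 6317 and 3971 to 5278.

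The calls in mAM_KO against mAM_WT depended on the setting, and the cause was not tested. The 4 listed genes past the threshold, a count that describes the comparison that chose the list and tests nothing, became 2 with all 11 libraries, with only the 2 groups compared, without a variance trend, with the replicate block and with a fold of at least 1.5, and 2 to 4 with each library left out (2 without mAM_WT replicate 2, 3 or 4, mAM_KO replicate 3, or Imm_KO replicate 2 or 4). The 5 pathway genes called became 3 with only the 2 groups, without a variance trend and with the replicate block, 10 in DESeq2, and 2 to 10 with each library left out (2 without mAM_KO replicate 1 or 3, 10 without replicate 2). Over all genes, the 624 calls (290 higher, 334 lower) became 337 with all 11 libraries (205 higher, 132 lower), 199 with only the 2 groups, 122 without a variance trend (76 higher, 46 lower), 1368 in DESeq2, 174 with the replicate block (109 higher, 65 lower), 315 with a fold of at least 1.5 (186 higher, 129 lower), and 162 to 861 with each library left out, the lowest without mAM_KO replicate 3.

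For same-numbered libraries, the correlations of their deviations from the group means were 0.136, -0.127, 0.0969 and 0.261 between mAM_WT and mAM_KO. Between mAM_KO and Imm_KO, which share a genotype, they were 0.0533, -0.0652 and -0.0419 for replicates 2 to 4. With so few libraries per group, such values cannot decide whether same-numbered libraries share a mouse. With the replicate block *Pla2g4a* was not called in Imm_KO, at limma p-adj of 0.0802 against mAM_WT and 0.0506 against mAM_KO.

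Among 1575 values for single genes, 32 lost a call, 8 gained one and 14 changed sign. Of the 14, 4 were of a listed gene, *Alox5ap* in mAM_KO against mAM_WT, with a log2 fold change of -0.014 that became 0.050 with all 11 libraries, 0.029 with quantile normalization and -0.043 to 0.013 with each library left out. In mAM_KO against mAM_WT, *Prxl2b* had log2 fold changes of 0.060 and 0.070 with pseudocounts of 0.5 and 1 CPM, 0.24 in edgeR and in DESeq2, and -0.52 to 0.73 with each library left out. Over the same omissions *Pnpla8* was at -0.18 to 0.065 and *Fpr1* at -0.28 to 0.013, and *Lpcat2* in Imm_KO against mAM_KO at -0.10 to 0.52. Of the listed genes, depth limited *Pla2g2d* in mAM_WT, where the 4 libraries held 1 to 7 reads, and among other genes *C1qa* (0 to 1 read there) and *Gm43621* (0 to 5 reads).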
